A study of Mus musculus with 6 samples.

Results

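Fatty acid oxidation and ketone body genes were followed here in the injured mouse liver: 38 genes chosen by name, of 15454 rows in the deposited count table, and each of the 38 was found as 1 row and passed the filter on low counts. They were 17 genes of mitochondrial oxidation, 5 of peroxisomal oxidation, 1 of ketone body metabolism, 5 acyl-CoA thioesterases, 6 genes of fatty acid uptake and activation, and 4 regulators or hormone-like targets of the pathway. RNA came from the livers of male C57BL/6 mice, 8 to 10 weeks old, in which 75% of the liver had been made ischemic at body temperature and then reperfused. The control group (I/R, n = 3 libraries) received the vehicle, and the other group (I/R+Rk2, n = 3 libraries) received ginsenoside Rk2, a saponin of ginseng, in the same vehicle, dosed 2 days ahead of the operation and once more as blood flow resumed. Both groups therefore carried the injury, and sham-operated livers were not analysed here. The labels do not say whether each library came from a separate mouse, so p-values measure the spread between these libraries.

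Fatty acids enter the hepatocyte by carriers such as CD36 and the FATP proteins, are held by the binding protein FABP1, and are activated to acyl-CoA by the ACSL enzymes. Carnitine palmitoyltransferases pass long chains into the mitochondrion, where a repeating cycle of dehydrogenase, hydratase, second dehydrogenase and thiolase shortens them and hands electrons to the electron transfer flavoprotein. Peroxisomes begin the shortening of very long and branched chains, and the liver turns much of the resulting acetyl-CoA into ketone bodies for other organs.

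Total counts ran from 16809613 to 35618074 per library, and 3 counts stood for between 0.0888 and 0.184 counts per 1000000 (CPM), a limit that covers counting error only. Albumin (Alb), a defining product of hepatocytes, stood at 49230 ± 4366 CPM with vehicle and 80120 ± 10010 CPM with Rk2, where values after ± are SDs of 3 libraries here and throughout. The scaling factors by trimmed mean of M values (TMM) ran from 1.01 to 1.14 in I/R and from 0.914 to 0.976 in I/R+Rk2, so they differed by group.

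Of the 38 genes, 22 rose and 2 fell with Rk2 at an adjusted p below 0.05 (edgeR's quasi-likelihood test, Benjamini-Hochberg adjustment over 12411 genes), and 14 did not pass. Acsl1, Fabp1, Ehhadh, Crat, Crot and Hadh had the largest rises, with log2 fold changes from 0.77 to 1.48, and Acot2 and Angptl4 were the 2 that fell. Among all genes tested 43.9% passed, 20.3% higher and 23.7% lower, against 63.2%, 57.9% and 5.26% of the 38. With a fold change above 2 as well, 2 of the 38 passed (5.26%), Acsl1 upward and Acot2 downward, against 14.6% of all genes. The 3 libraries of one group all lay above the 3 of the other in 28 of the 38 (73.7%), against 57.4% of all genes. The median log2 fold change was 0.39 over the 38 genes and -0.01 over all genes tested.

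**Figure D1:**
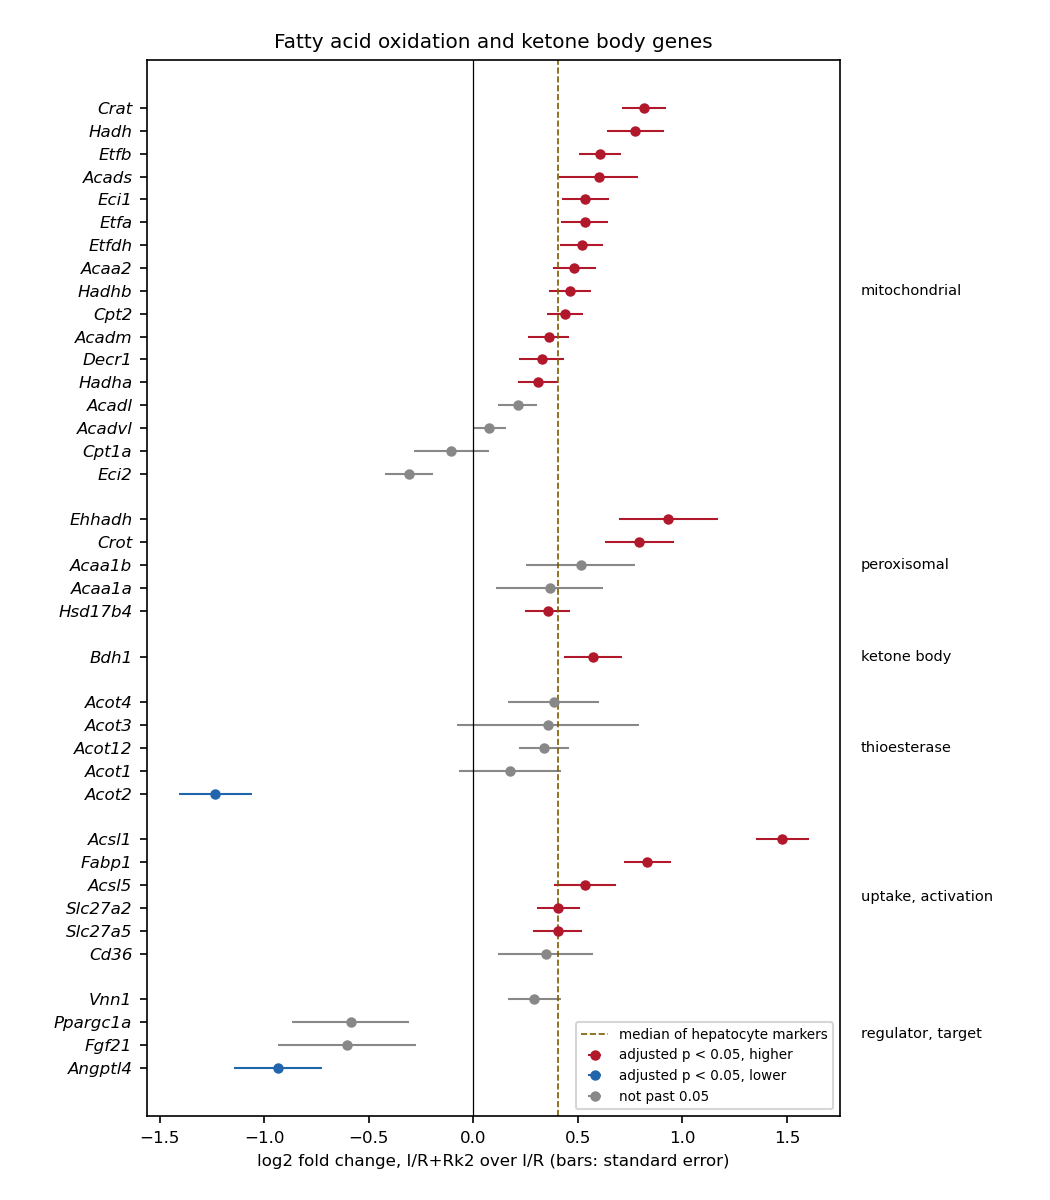
Log2 fold change of each of the 38 genes, I/R+Rk2 over I/R (horizontal axis), with its standard error as a bar, grouped by role. Red and blue points passed an adjusted p of 0.05 upward (22 genes) and downward (2 genes), grey points did not pass (14 genes), and the dashed line is the median of 18 hepatocyte markers at 0.41.

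General hepatocyte transcripts were higher by a like amount in their median, but not uniformly. Of 18 hepatocyte markers, such as albumin and Ahsg (fetuin-A, a secreted plasma protein), 12 were higher, 1 was lower and 5 did not pass. Their log2 fold changes ran from -0.52 to 1.06, with a median of 0.41. The marker that fell was Hnf4a, named after its values were seen, at 660 ± 20.6 CPM with vehicle and 460 ± 44.2 CPM with Rk2 (-0.52, edgeR adjusted p = 0.00583). The summed level of the 18 ran from 94500 to 105600 CPM with vehicle and from 135600 to 162500 CPM with Rk2. When the libraries were scaled by these 18 markers, an alternative added after seeing the data, the median of the 38 genes was 0.005 and that of all genes was -0.38. That scaling puts the markers near 0 by construction (median 0.027) and shifts all genes by much the same amount. The median of the 38 genes stayed 0.386 above that of all genes, against 0.402 with TMM scaling. With scaling by the markers, 11 of the 38 genes passed, 6 higher (Crat, Hadh, Ehhadh, Crot, Acsl1 and Fabp1) and 5 lower (Cpt1a, Eci2, Acot2, Angptl4 and Ppargc1a). Scaled by library size alone, 12 were higher and 3 lower, with the median of all genes at -0.17, and limma on log2(FPKM + 1), where FPKM is a level per transcript length and library depth, gave 10 higher and 3 lower. Markers of infiltrating leukocytes were lower in I/R+Rk2: 11 of 12 neutrophil markers (summed level 1190 to 1503 CPM with vehicle and 155 to 314 CPM with Rk2) and 12 of 12 monocyte and macrophage markers (1926 to 2328 CPM and 1250 to 1322 CPM). The median log2 fold changes were -2.20 and -3.15. The monocyte and macrophage sum was carried by Fn1, fibronectin, which hepatocytes also make (log2 fold change -0.49), and without it ran from 518 to 623 CPM with vehicle and from 112 to 163 CPM with Rk2. Lcn2, the most abundant neutrophil marker, made up much of the neutrophil sum with vehicle (633 ± 167 CPM, and 48.9 ± 11.9 CPM with Rk2). Its log2 fold change, -3.70, was the lowest of the 12, and which cells its RNA came from was not tested. Without Lcn2 the neutrophil sum ran from 595.5 to 725.2 CPM with vehicle and from 110 to 251.6 CPM with Rk2. In bulk liver, fewer cells of a type and less RNA per cell cannot be told apart, and the part of these markers in the values of the 38 genes was not tested.

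**Figure D2:**
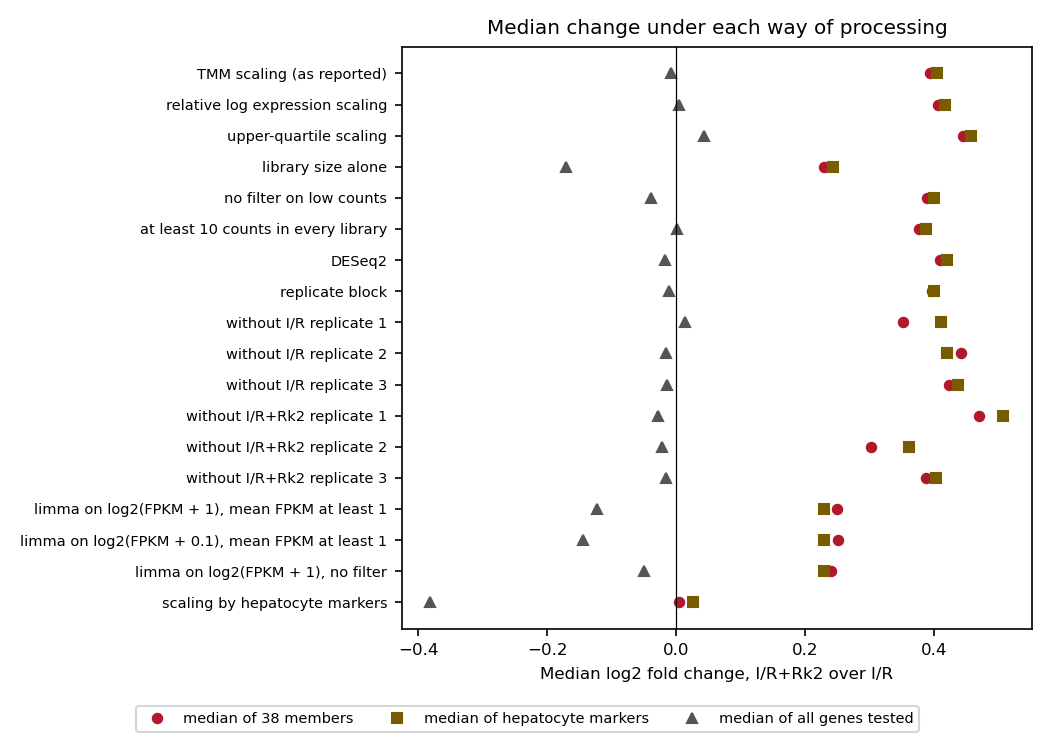
Median log2 fold change, I/R+Rk2 over I/R (horizontal axis), of the 38 genes (circles), of the hepatocyte markers (squares) and of all genes tested (triangles), with 1 line for each way of processing. The circles and squares lie close together throughout, at 0.394 and 0.405 with TMM scaling. Scaling by the hepatocyte markers puts the squares near 0 by construction. A change of scaling shifts all genes by much the same amount, so the circles follow and the scalings are not separate tests of this closeness.

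The count of genes that passed rested in part on single libraries. Leaving out I/R replicate 1 gave 15, and leaving out I/R+Rk2 replicate 2 gave 15 as well, against 24 with all 6 libraries. Within its group, I/R+Rk2 replicate 2 was the highest library for 25 of the 38 genes, I/R+Rk2 replicate 1 was the lowest for 22 and I/R replicate 1 the lowest for 21. Under each of 16 other ways of processing (without the scaling by markers), 11 of the 24 genes passed in the same direction: Hadh, Acaa2, Eci1, Etfa, Etfb, Etfdh, Crot, Acsl1, Fabp1, Acot2 and Angptl4. Over 17 alternatives, with the scaling by markers included, Hadha and Decr1 passed in 6, Hsd17b4 in 7, and Acadm and Slc27a5 in 8. These were the least stable of the 24.

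**Figure D3:**
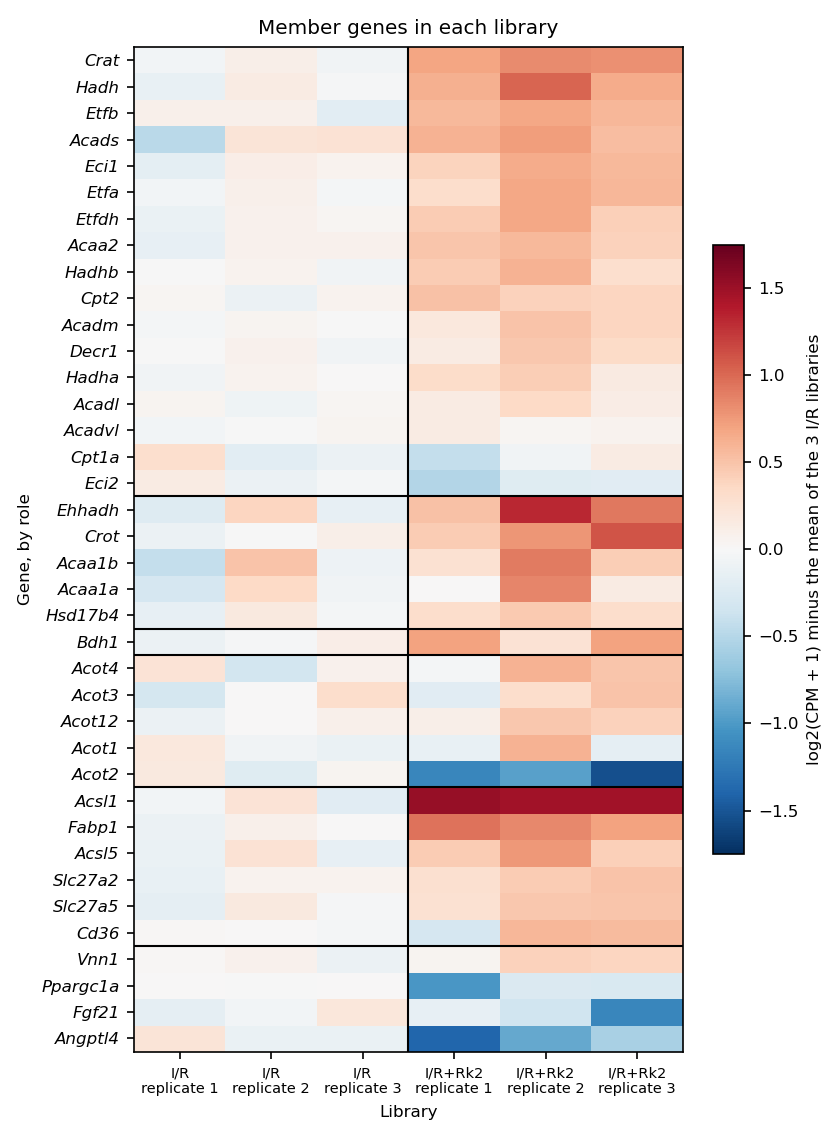
Level of each of the 38 genes (rows, by role) in each of the 6 libraries (columns), as log2(CPM + 1) minus the mean of the 3 I/R libraries. Red stands for a higher and blue for a lower level, Acsl1 is the deepest red in all 3 I/R+Rk2 libraries, Acot2 and Angptl4 are blue there, and the peroxisomal genes are deepest in I/R+Rk2 replicate 2 except Crot.

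Genes of fatty acid uptake and activation rose in 5 of 6 cases, all but Cd36, with a median log2 fold change of 0.47. Acsl1, the main acyl-CoA synthetase of liver (chromosome 8, 46471037 to 46536051, GRCm38), had 250, 306 and 226 CPM in the I/R libraries and 745, 717 and 716 CPM in the I/R+Rk2 libraries. The groups lay far apart, and the treated libraries were nearly equal. The means were 261 ± 40.8 and 726 ± 16.7 CPM (SD, n = 3), and the log2 fold change was 1.48 (standard error, SE, 0.13, edgeR adjusted p = 0.00042), the largest rise of the 38.

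Acsl5, a second synthetase of the same family, had 355, 459 and 346 CPM with vehicle and 520, 648 and 510 CPM with Rk2, a log2 fold change of 0.53 (SE 0.15, edgeR adjusted p = 0.0246). Its groups did not overlap, but its rise was smaller than that of Acsl1. Within each library, the ratio of Acsl1 to Acsl5 counts was 0.704, 0.666 and 0.655 in I/R and 1.43, 1.11 and 1.40 in I/R+Rk2, so it did not overlap between groups. Per length, on the FPKM scale, the level of Acsl1 was 79.0 ± 11.9 against 122 ± 17.7 for Acsl5 in I/R, and 191 ± 8.45 against 158 ± 22.2 in I/R+Rk2. In I/R every library of Acsl1 lay below every library of Acsl5, and in I/R+Rk2 the order was the opposite, by a narrow margin (lowest Acsl1 value 184 FPKM, highest Acsl5 value 182 FPKM).

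Fabp1, which carries fatty acids through the cytosol of hepatocytes (chromosome 6, 71199827 to 71205023), had 1814, 2078 and 1955 CPM with vehicle and 3749, 3475 and 3184 CPM with Rk2. All treated libraries exceeded all controls. The log2 fold change was 0.83 (SE 0.11, edgeR adjusted p = 0.00179). Slc27a2, which encodes the very long-chain acyl-CoA synthetase and transporter FATP2, averaged 657 CPM with vehicle and 871 CPM with Rk2 (0.41 on the log2 scale, edgeR adjusted p = 0.0177). Slc27a5, which encodes the bile acyl-CoA synthetase FATP5, averaged 535 and 707 CPM (0.40, edgeR adjusted p = 0.028). Their groups did not overlap either. Cd36, a membrane receptor for fatty acids that macrophages and endothelial cells also carry, had 23.5, 23.3 and 22.4 CPM with vehicle and 18.7, 35.0 and 34.3 CPM with Rk2. Its I/R+Rk2 replicate 1 lay below all controls and the other two above them, and the difference did not pass (0.35 on the log2 scale, SE 0.23, edgeR adjusted p = 0.25).

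Fabp1 and 4 other genes of the set held an imperfect direct repeat in the 250 bases before a RefSeq start. The repeat searched on both strands was AGGTCANAGGTCA, in which N is any base, with up to 2 mismatches at its 12 fixed positions. It is the kind of element that nuclear receptors of the PPAR family bind together with RXR, and it contains the half-site AGGTCA at each end. RefSeq promoters (GRCm38.p6) matched 31 of the 38 genes, and Crat, Acaa2, Decr1, Hsd17b4, Slc27a5, Vnn1 and Angptl4 were not matched. These genes had 34 promoters in the table. A match was present in 5 of the 34 (1 each in 5 genes) and in 3.24% of all 32851 promoters of the same length, and an exact half-site in 8 of the 34 and in 4607 of the 32851. The matches are shown because they let the genes that share the element be set beside their values, read 5′ to 3′ in the direction of the repeat, with capitals for bases that depart from it.
Fabp1: aggCcataggtca
Acot12: aggtGagaggtca
Acot4: CggCcaaaggtca
Cd36: aAgtcagaggCca
Etfa: aggGcaaaggtAa
They lay at chr6:71199812-71199824 (Fabp1), chr13:91741411-91741423 (Acot12), chr12:84038366-84038378 (Acot4), chr5:17835947-17835959 (Cd36) and chr9:55512308-55512320 (Etfa), in each case with the repeat on the strand opposite to the gene. The Cd36 match lay before a RefSeq start inside the span of the gene in GENCODE M21 (chr5:17781690-17888801, minus strand), not before its outermost start. Of these genes Fabp1 and Etfa rose, and Acot12, Acot4 and Cd36 did not pass. The other 26 matched genes held no such repeat in this window, among them Acsl1, which had the largest rise. Of those 26, Acadm, Acadvl, Cpt1a and Slc27a2 held an exact half-site there. A match is a description of sequence and was not measured as a bound site.

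The upstream sequences of the genes with a single mismatch, Fabp1 (chr6:71199629-71199826, plus strand) and Acot12 (chr13:91741271-91741511, plus strand), are given on the gene's strand up to the first annotated exon base, with the repeat in capitals, to show where the element sits.
Fabp1: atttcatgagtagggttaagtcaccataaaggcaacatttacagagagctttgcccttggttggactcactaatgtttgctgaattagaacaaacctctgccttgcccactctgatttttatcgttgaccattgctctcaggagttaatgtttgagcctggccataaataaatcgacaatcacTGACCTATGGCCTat
Acot12: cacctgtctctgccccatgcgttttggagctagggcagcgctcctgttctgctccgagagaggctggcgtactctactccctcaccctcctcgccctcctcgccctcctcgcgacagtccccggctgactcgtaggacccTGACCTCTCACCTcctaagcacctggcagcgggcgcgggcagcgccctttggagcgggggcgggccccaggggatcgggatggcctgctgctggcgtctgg
In Fabp1 the element spanned bases 67 to 55 before the RefSeq start, and in Acot12 bases 110 to 98 before it.

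Of the 17 mitochondrial genes, 13 rose and 4 did not pass, with a median log2 fold change of 0.46. In the carnitine shuttle, Cpt2 and Crat rose and Cpt1a did not pass. Cpt1a, the malonyl-CoA-sensitive entry enzyme of the outer membrane, had 225, 161 and 170 CPM with vehicle and 138, 176 and 204 CPM with Rk2, with overlapping groups (log2 fold change -0.10, SE 0.18, edgeR adjusted p = 0.661), and the sign turned when I/R replicate 1 or I/R+Rk2 replicate 1 was left out. Cpt2, its partner on the inner membrane, had 59.6, 54.4 and 61.0 CPM with vehicle and 83.6, 77.5 and 76.0 CPM with Rk2 (log2 fold change 0.44, SE 0.09, edgeR adjusted p = 0.00649). Crat, which moves short acyl groups between carnitine and coenzyme A, had 11.9, 13.4 and 11.8 CPM with vehicle and 20.6, 22.6 and 22.1 CPM with Rk2. Both Cpt2 and Crat had groups that did not overlap in CPM, and for Crat the log2 fold change was 0.82 (SE 0.10, edgeR adjusted p = 0.00144). On the FPKM scale the groups of Cpt2 overlapped, at 31.0 ± 4.89 with vehicle and 35.1 ± 2.85 with Rk2. Neither gene passed in the limma fits on FPKM. The ratio of Cpt1a to Cpt2 counts was 3.78, 2.96 and 2.80 in I/R and 1.65, 2.28 and 2.68 in I/R+Rk2, with the nearest libraries of the groups at 2.80 and 2.68.

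The acyl-CoA dehydrogenases of the set, which open each round of the cycle, were ordered by chain length in their fold changes. Differences between these genes were not tested, and the order covers these genes only. Acad9 and Acad11, further genes of this family, were named after their values were seen. Their log2 fold changes were 0.447 and 0.454, above that of Acadm (edgeR adjusted p = 0.00847 and 0.00934). Acads, for short chains, had 63.8, 104 and 106 CPM with vehicle and 137, 148 and 130 CPM with Rk2 (log2 fold change 0.60, SE 0.19, edgeR adjusted p = 0.0381), with I/R replicate 1 well below the other controls. Acadm, for medium chains, rose from 136 ± 3.77 to 175 ± 18.9 CPM (0.36, edgeR adjusted p = 0.0231), but its groups overlapped on the FPKM scale. Acadl, for long chains, did not pass (0.21 on the log2 scale, edgeR adjusted p = 0.105) although its lowest treated library, at 130 CPM, lay above its highest control, at 122 CPM. Acadvl, for very long chains, had 253, 261 and 271 CPM with vehicle and 289, 267 and 272 CPM with Rk2, an overlap (0.08, SE 0.08, edgeR adjusted p = 0.464), and its sign turned with library size alone.

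Later steps of the cycle were mostly higher. Hadha and Hadhb encode the α and β subunits of the mitochondrial trifunctional protein, which acts on long chains, and their genes start head to head on chromosome 5 with 85 bases between them. Hadha rose from 202 ± 8.31 CPM to 251 ± 24.9 (log2 change 0.31, edgeR adjusted p = 0.0374). On the FPKM scale its groups overlapped, at 68.9 ± 2.83 with vehicle and 72.0 ± 0.302 with Rk2. Hadhb had 66.8, 69.8 and 64.0 CPM with vehicle and 91.0, 103 and 82.5 CPM with Rk2 (log2 fold change 0.46, SE 0.10, edgeR adjusted p = 0.0101). The ratio of Hadha to Hadhb counts went from 3.03 ± 0.129 to 2.72 ± 0.0588, without overlap, but 19.7% of the 50-base windows of Hadhb occur in other genes, so its count is less certain.

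Hadh, the dehydrogenase for medium and short hydroxyacyl-CoA, had 170, 206 and 184 CPM with vehicle and 288, 378 and 292 CPM with Rk2, a log2 fold change of 0.77 (SE 0.14, edgeR adjusted p = 0.00431), the second largest rise of the mitochondrial genes after Crat. Acaa2, the thiolase that ends the cycle, had 483, 562 and 567 CPM with vehicle and 750, 799 and 707 CPM with Rk2 (0.48, SE 0.10, edgeR adjusted p = 0.00882). Groups were apart for both genes.

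Of the 3 enzymes for unsaturated chains, Eci1 and Decr1 rose and Eci2 did not pass. Eci1, an enoyl-CoA isomerase of mitochondria, had 67.1, 82.5 and 79.1 CPM with vehicle and 99.3, 119 and 113 CPM with Rk2 (log2 fold change 0.54, SE 0.11, edgeR adjusted p = 0.00872). Eci2, an isomerase found in both mitochondria and peroxisomes, had 123, 104 and 109 CPM with vehicle and 77.9, 96.2 and 97.3 CPM with Rk2. All treated libraries of Eci2 lay below the controls, but the difference did not pass (-0.31, SE 0.12, edgeR adjusted p = 0.0674). The ratio of Eci2 to Eci1 counts was 1.83, 1.26 and 1.38 in I/R and 0.785, 0.807 and 0.860 in I/R+Rk2, so Eci2 was the more counted of the pair in the controls and the less counted in the treated libraries. Decr1, the dienoyl-CoA reductase, rose from 129 ± 6.17 to 161 ± 19.0 CPM (0.33, edgeR adjusted p = 0.0407), but its groups overlapped on the FPKM scale.

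The 3 genes of electron transfer from the dehydrogenases to the respiratory chain rose by like amounts. Etfa and Etfb encode the subunits of the electron transfer flavoprotein, and Etfdh encodes the oxidoreductase that takes its electrons to ubiquinone. Etfa had 181, 199 and 184 CPM with vehicle and 234, 302 and 281 CPM with Rk2 (log2 fold change 0.53, SE 0.11, edgeR adjusted p = 0.00877). Etfb had 138, 138 and 115 CPM with vehicle and 192, 207 and 195 CPM with Rk2 (0.61, SE 0.10, edgeR adjusted p = 0.00341), but 44.8% of its 50-base windows also occur in other genes. Etfdh had 150, 171 and 167 CPM with vehicle and 221, 260 and 217 CPM with Rk2 (0.52, SE 0.10, edgeR adjusted p = 0.00687). The groups did not overlap in any of these 3 genes, and the ratio of Etfa to Etfb counts overlapped between groups at 1.45 ± 0.147 and 1.37 ± 0.134.

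Of the 5 peroxisomal genes, 3 rose (Ehhadh, Crot and Hsd17b4) and 2 did not pass, with a median log2 fold change of 0.51. Ehhadh, the bifunctional enzyme for straight chains, had 149, 226 and 157 CPM with vehicle and 249, 436 and 330 CPM with Rk2, a log2 fold change of 0.93 (SE 0.24, edgeR adjusted p = 0.0176). The groups did not overlap, but both were wide. Crot, which loads medium chains onto carnitine for export to mitochondria, had 335, 358 and 385 CPM with vehicle and 489, 612 and 769 CPM with Rk2, again without overlap (0.79, SE 0.17, edgeR adjusted p = 0.00838). Hsd17b4, the bifunctional enzyme for branched chains and bile acid precursors, rose from 262 ± 29.5 to 335 ± 20.5 CPM (0.36, edgeR adjusted p = 0.0321).

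Acaa1a and Acaa1b, the peroxisomal thiolases, are close copies, with 12.9% and 30.5% of their 50-base windows in other genes. Acaa1a had 121, 189 and 141 CPM with vehicle and 148, 268 and 163 CPM with Rk2, and Acaa1b had 304, 573 and 380 CPM with vehicle and 487, 763 and 544 CPM with Rk2. The groups overlapped in both, and the summed counts of the pair gave a log2 fold change of 0.48 (SE 0.26, edgeR adjusted p = 0.172), which passed without I/R replicate 2 (log2 fold change 0.75). For Ehhadh, Acaa1a, Acaa1b and Hsd17b4, replicate 2 was the highest library in both groups. The median coefficient of variation was 23.3% in I/R and 24.3% in I/R+Rk2 over the 5 peroxisomal genes, against 6.74% and 9.92% over the 17 mitochondrial genes.

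Bdh1, the mitochondrial enzyme that interconverts acetoacetate and β-hydroxybutyrate, was the ketone body gene of the set. It had 88.0, 92.7 and 103 CPM with vehicle and 154, 113 and 155 CPM with Rk2, with I/R+Rk2 replicate 2 nearest to the controls and no overlap. The log2 fold change was 0.57 (SE 0.14, edgeR adjusted p = 0.0149). On the FPKM scale the groups overlapped, at 51.4, 48.8 and 53.2 with vehicle and 76.6, 46.9 and 70.6 with Rk2. Bdh1 did not pass in the limma fits on FPKM, nor when I/R replicate 1 was left out. Of 10 other ketone body genes, 6 rose and 4 did not pass the same test, with a median of 0.58. Bdh2, a short-chain dehydrogenase of the cytosol, rose from 9.59 ± 0.887 to 15.6 ± 0.283 CPM (edgeR adjusted p = 0.00322), and Acat3, a cytosolic acetoacetyl-CoA thiolase, from 172 ± 18.8 to 263 ± 22.3 CPM (edgeR adjusted p = 0.00503).

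**Figure D4:**
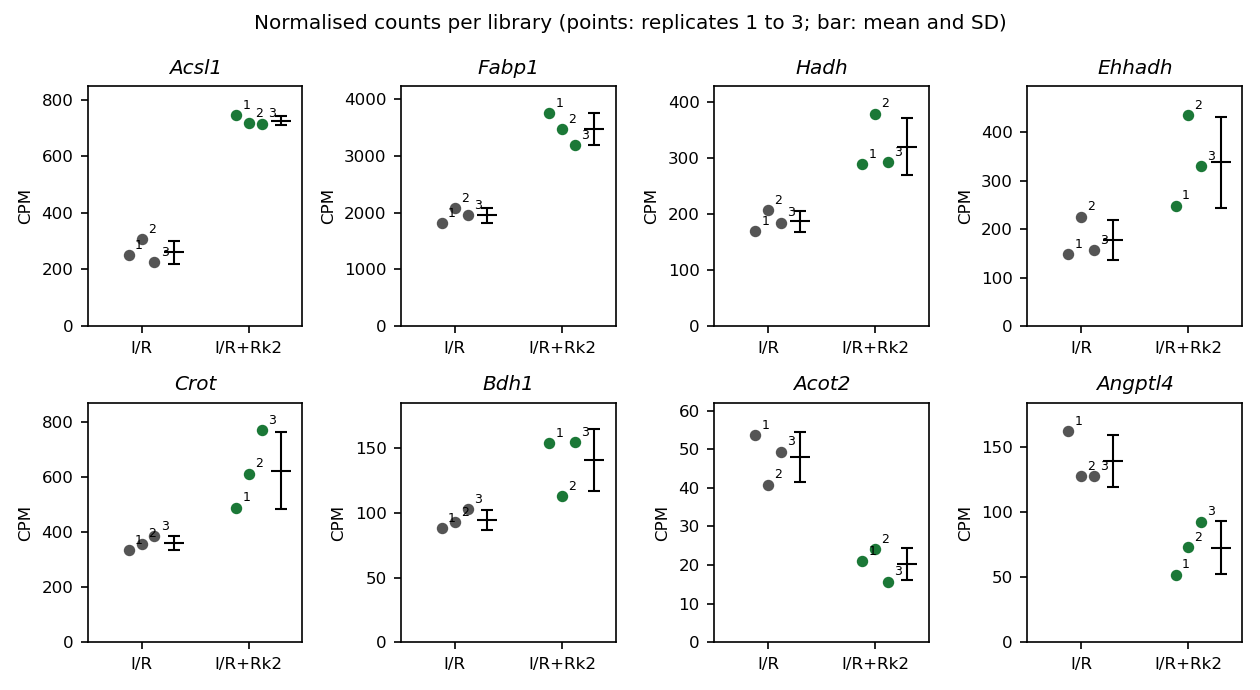
Normalised counts (CPM, vertical axes from 0) of 8 genes in the 3 I/R libraries (grey) and the 3 I/R+Rk2 libraries (green), numbered by replicate, with the mean and SD of each group as a bar. Acsl1, Fabp1, Hadh, Ehhadh, Crot and Bdh1 lie higher and Acot2 and Angptl4 lower in every I/R+Rk2 library than in any I/R library.

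Acyl-CoA thioesterases, which release free fatty acids from coenzyme A, gave 1 change in 5. Acot2, the mitochondrial member (chromosome 12, 83987861 to 83993873), had 53.7, 40.9 and 49.4 CPM with vehicle and 21.0, 24.1 and 15.7 CPM with Rk2. Every treated library was below every control, and the log2 fold change was -1.23 (SE 0.18, edgeR adjusted p = 0.00206). Acot1, its cytosolic neighbour, had 11.2, 9.33 and 8.89 CPM with vehicle and 8.87, 15.4 and 8.60 CPM with Rk2, with I/R+Rk2 replicate 2 alone above the controls (0.18, SE 0.24, edgeR adjusted p = 0.587). The sign of Acot1 turned without that library and on the FPKM scale.

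Acot4, a peroxisomal member, had 18.6, 12.2 and 16.5 CPM with vehicle and 15.2, 24.3 and 22.1 CPM with Rk2 (log2 fold change 0.38, SE 0.22, edgeR adjusted p = 0.189). Acot3, also peroxisomal, had the fewest counts of the 38, at 0.626 to 1.48 CPM with vehicle and 0.757 to 1.84 CPM with Rk2. Acot12, a cytosolic acetyl-CoA thioesterase, had 54.1, 58.7 and 62.3 CPM with vehicle and 62.7, 81.4 and 77.2 CPM with Rk2, just apart but not past the threshold (0.34, SE 0.12, edgeR adjusted p = 0.0534).

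The Acot1 to Acot4 genes lie within 72542 bases of chromosome 12 (chr12:83987861-84060402) and share sequence, with 27.7% of the 50-base windows of Acot2, 19.2% of Acot1, 19.1% of Acot3 and 4.53% of Acot4 found in other genes. The ratio of Acot2 to Acot1 counts was 4.81, 4.38 and 5.55 in I/R and 2.37, 1.56 and 1.83 in I/R+Rk2, and that of Acot2 to Acot4 was 2.89, 3.35 and 3.0 in I/R and 1.38, 0.993 and 0.713 in I/R+Rk2. Both ratios were lower in every treated library. The 4 genes summed to 74.5 ± 10.4 CPM with vehicle and 53.1 ± 10.6 CPM with Rk2, a log2 fold change of -0.49 (SE 0.17, edgeR adjusted p = 0.0482) whose ranges overlapped, and it did not pass when either I/R replicate 1 (-0.38) or 3 (-0.47), or either I/R+Rk2 replicate 1 (-0.40) or 3 (-0.42), was left out.

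Of the 4 regulators and targets, 1 fell and 3 did not pass, with a median log2 fold change of -0.60. Angptl4, a secreted inhibitor of lipoprotein lipase (chromosome 17, 33773750 to 33781830), had 162, 127 and 127 CPM with vehicle and 52.0, 73.3 and 92.6 CPM with Rk2. The groups did not overlap, and the log2 fold change was -0.94 (SE 0.21, edgeR adjusted p = 0.011). Ppargc1a, a coactivator of mitochondrial genes, had 4.85, 4.80 and 4.86 CPM with vehicle and 1.89, 3.91 and 3.87 CPM with Rk2. All treated libraries were lower, with I/R+Rk2 replicate 1 far below the others, and the difference did not pass (-0.59, SE 0.28, edgeR adjusted p = 0.128).

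Fgf21, a hormone that liver releases in fasting and stress, had 4.12, 4.53 and 5.58 CPM with vehicle and 4.16, 3.46 and 1.60 CPM with Rk2, with an overlap of the groups (log2 fold change -0.60, SE 0.33, edgeR adjusted p = 0.174). Vnn1, a pantetheinase that serves coenzyme A turnover, had 22.0, 23.0 and 20.1 CPM with vehicle and 22.4, 28.9 and 28.3 CPM with Rk2 (0.29, SE 0.12, edgeR adjusted p = 0.0952).

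In all, 9 ratios of counts within a library were compared, and in 6 the groups did not overlap, namely Acot2 to Acot1, Acot2 to Acot4, Cpt1a to Cpt2, Acsl1 to Acsl5, Hadha to Hadhb and Eci2 to Eci1. Of all single genes tested, 57.4% did not overlap between the groups either, and ratios of other gene pairs were not counted. The 9 pairs were not among the planned results, so the count of 6 says little by itself. With 3 libraries against 3, the smallest p that a two-sided exact permutation test allows is 0.1, which each of the 6 reached (0.15 after Benjamini-Hochberg adjustment over the 9), so none could pass 0.05. The ratios of Ehhadh to Hadha (0.872 ± 0.173 and 1.35 ± 0.322) and of Acaa1b to Acaa1a (2.75 ± 0.264 and 3.16 ± 0.273) overlapped. Such ratios do not depend on how the libraries are scaled.

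Per length, Fabp1 stood far above the rest, at 3492 ± 122 FPKM in I/R and 5583 ± 625 FPKM in I/R+Rk2. Acaa2 followed at 351 ± 8.75 and 441 ± 34.6 FPKM. Acaa1b (246 ± 71.4 FPKM), Slc27a5 (238 ± 17.2 FPKM), Slc27a2 (225 ± 1.82 FPKM) and Etfb (212 ± 33.2 FPKM) came next in I/R and did not differ from one another beyond their spread. The lowest levels in I/R were those of Acot3 (0.287 ± 0.108 FPKM) and Ppargc1a (0.741 ± 0.0513 FPKM). Together the 38 genes held 0.942% to 1.06% of the summed FPKM of an I/R library and 1.31% to 1.57% of that of an I/R+Rk2 library, and without Fabp1 their summed level ran from 2924 to 3271 FPKM and from 3640 to 4190 FPKM.

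Other genes of the pathway were counted from 4 lists, and the genes named from each are among those with its smallest p unless marked otherwise. Of 25 further mitochondrial genes tested, 17 rose and 2 fell, with a median log2 fold change of 0.45. Mlycd, which removes malonyl-CoA, the inhibitor of the entry step, rose from 39.4 ± 1.25 CPM to 71.2 ± 6.40 (log2 change 0.85, edgeR adjusted p = 0.000849). Acot13, a thioesterase, rose from 20.9 ± 1.83 to 38.01 ± 3.73 CPM (0.86), and Acad8, a dehydrogenase of valine breakdown, from 34.5 ± 2.76 to 57.1 ± 3.84 CPM (0.73). Slc22a5, the carnitine importer of the plasma membrane, went the other way, with 52.3, 47.4 and 33.9 CPM with vehicle and 11.9, 16.3 and 16.5 CPM with Rk2 (-1.58, SE 0.20, edgeR adjusted p = 0.00134).

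Of 20 further peroxisomal genes tested, 12 rose and 8 did not pass, with a median of 0.42. Hacl1, which cleaves hydroxyacyl-CoA in the breakdown of phytanic acid, had 98.7, 148 and 116 CPM with vehicle and 285, 351 and 281 CPM with Rk2 (log2 fold change 1.34, SE 0.17, edgeR adjusted p = 0.0013). Abcd3, a peroxisomal importer of long and branched acyl-CoA, rose from 284 ± 56.4 to 573 ± 101 CPM (1.02, edgeR adjusted p = 0.00443). Amacr, a racemase for branched acyl-CoA, rose from 66.0 ± 8.80 to 126 ± 7.39 CPM (0.93), and Pecr, a reductase of enoyl-CoA, from 129 ± 12.4 to 199 ± 12.9 CPM (0.62).

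Of 28 other regulators and targets, 7 rose and 6 fell, with a median of 0.25. The share that passed, 46.4%, was near the 43.9% of all genes. Prkaa2, a catalytic subunit of AMP-activated protein kinase, had 22.4, 22.9 and 25.2 CPM with vehicle and 42.5, 44.5 and 46.6 CPM with Rk2 (log2 fold change 0.92, SE 0.09, edgeR adjusted p = 0.000593). Prkaa1, another catalytic subunit of this kinase, went the other way and was named after its values were seen. It fell from 15.5 ± 1.36 to 9.19 ± 0.933 CPM (-0.76, edgeR adjusted p = 0.0037), without overlap. Plin2, the coat protein of lipid droplets, had 1151, 936 and 782 CPM with vehicle and 323, 343 and 309 CPM with Rk2 (-1.56, SE 0.15, edgeR adjusted p = 0.000587). Fabp4, a fatty acid binding protein of adipocytes, macrophages and endothelium, fell from 29.6 ± 2.36 to 11.1 ± 1.70 CPM (-1.41, edgeR adjusted p = 0.000617). Of 8 adipocyte markers 3 were tested, of which Cidec fell from 18.9 ± 4.66 to 2.37 ± 0.899 CPM (-2.97, edgeR adjusted p = 0.000707), Pparg fell from 8.15 ± 0.435 to 5.77 ± 0.902 CPM (-0.49, edgeR adjusted p = 0.0354) and Lipe did not pass (0.12 on the log2 scale). The defining markers Adipoq and Plin1 were at 0 in 5 of 6 libraries each. These 5 genes were named after their values were seen. The macrophage markers fell as given above, and of 10 endothelial markers 3 rose and 3 fell. The part of these markers in the fall of Fabp4 was not tested.

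Over the 4 lists, 83 genes were tested, of which 42 rose and 8 fell, with a median log2 fold change of 0.41, next to 0.39 for the 38 genes and 0.41 for the hepatocyte markers. The 50 calls became 33 when I/R replicate 1 was left out and 31 when I/R+Rk2 replicate 2 was. With the libraries scaled by hepatocyte markers, 25 passed, 10 of them upward.

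Overlaps in the annotation limit some of these counts. Exons of 15 of the 38 genes overlap another gene on the opposite strand in GENCODE M21, and the strand setting of the counting is not given in the sources used here. Exons of 4 genes (Etfb, Crot, Acot3 and Acot4) overlap another gene on the same strand, and 7 genes share over 10% of their 50-base windows with other genes.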

How the data were processed

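Per the labels, reads were aligned to mm10 with HISAT2 2.2.1 and quantified with StringTie 1.3.3; the annotation was not given in the sources used here. The authors deposited gene-level counts as whole numbers, and FPKM values in a second table. All count and FPKM columns were assigned to samples by their names. Counts were analysed with edgeR 4.0.16 in R 4.3.3: filterByExpr defaults, TMM scaling, quasi-likelihood F test of I/R+Rk2 against I/R over 12411 genes, and Benjamini-Hochberg adjustment. SE is the absolute log2 fold change over the square root of F. The code was tested on simulated data. Alternatives were other scalings, filters, DESeq2 1.42.0, limma 3.58.1 on the deposited FPKM, a replicate block and leaving out each library. Libraries of a group differed by 31.4 to 74.8 in chi-square per degree of freedom, above sampling noise. Separate preparations of the same liver could differ in this way too, so it does not show that they came from separate mice. Each library was counted as 1 replicate. The 38 genes and the lists were chosen with earlier results of these data known. All 38 could be named, at most the 4 genes with the smallest p of each other pathway list, and at most 2 abundant genes per marker list. Genes named outside these limits are marked as named after their values were seen. Some genes that these rules allow are left unnamed, but all tests and counts include them.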

Additional observations from a re-analysis of the deposited data

How the results depend on the processing

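Among the 24 of 38 genes that passed, none changed sign under the 16 alternatives other than scaling by markers. The count was 15 (12 higher) with library size alone, and 13 (10 higher) in each of the limma fits on log2(FPKM + 1), log2(FPKM + 0.1) and log2(FPKM + 1) without a filter, where the 50 calls among other pathway genes became 33, 32 and 29. Leaving out 1 library gave 15 to 25 genes, 13 to 23 of them higher and 2 lower throughout, and 31 to 53 other pathway genes. Scaling by hepatocyte markers, added after seeing the data, gave 11 genes (6 higher and 5 lower) and 25 other pathway genes. It turned the log2 fold changes of Acadm (-0.0227), Acadl (-0.167), Acadvl (-0.290), Hadha (-0.0613), Decr1 (-0.0575), Acaa1a (-0.0247), Hsd17b4 (-0.0172), Acot1 (-0.222), Acot3 (-0.0364), Acot4 (-0.0168), Acot12 (-0.0463), Cd36 (-0.0582) and Vnn1 (-0.0935). Of the genes that had not passed, Acadvl turned to -0.0827 with library size alone and Acot1 to -0.0315, -0.0387 and -0.0315 in the limma fits. When 1 library was left out, Cpt1a ran from -0.235 to 0.0690 (above 0 without I/R replicate 1 or I/R+Rk2 replicate 1) and Acot1 from -0.160 to 0.324 (below 0 without I/R+Rk2 replicate 2).

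The summed Acot1 to Acot4 counts did not pass with upper-quartile scaling (-0.435), without a filter (-0.49) or with the replicate block (-0.50), and ran from -0.662 to -0.384 when 1 library was left out. The summed Acaa1a and Acaa1b counts passed with the replicate block (0.49) and ran from 0.24 to 0.75 when 1 library was left out. Same-numbered libraries deviated from their group means with correlations of -0.03, 0.05 and -0.02, so the numbers were not taken to pair them, and the block gave 27 of 38 genes. The cause of these shifts was not tested. Among the 38 genes, counting error weighed most on Acot3, at 0.626 to 1.84 CPM.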

Other observations

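Markers of other cell types were also counted. Of 10 Kupffer cell markers 1 fell (median log2 fold change -0.46), of 10 stellate cell markers 4 fell (-0.21), of 7 cholangiocyte markers 4 fell (-0.93), and of 3 adipocyte markers tested 2 fell. Among the cholangiocyte falls, Spp1 is also on the monocyte and macrophage list, so it counts in both. Cftr, another of these falls and named after its values were seen, had 0 to 18 counts per library. Adipoq and Plin1, the defining adipocyte markers, were almost without counts, as given above. The endothelial markers had a median of 0.12. All 5 red cell markers tested rose, with a median of 1.12 and a summed level of 1301 to 2520 CPM in I/R and 3243 to 4196 CPM in I/R+Rk2.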
